A study of Homo sapiens with 66 samples.

Results

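Nonsense-mediated decay (NMD) factors were followed through 2 RNA-seq studies of THP-1 cells, a human monocytic leukemia cell line. The 9 genes were UPF1, UPF2, UPF3A, UPF3B, SMG1, SMG5, SMG6, SMG8, and SMG9, chosen by name and found by Ensembl identifier among the 57820 genes of each count table. All 9 passed the filter on low counts in both studies (13193 and 13650 genes tested). Their introns made up 184 of the 197626 intronic regions counted in study 1. Of these 184 regions, 24 had enough counts to be tested.

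NMD is the pathway that degrades mRNAs on which translation ends too early, as on an mRNA that has kept an intron or an exon with a stop codon. UPF1 is its RNA helicase. UPF2 bridges UPF1 to UPF3B (or to its paralog UPF3A), which contacts the exon junction complex left on mRNA by splicing. SMG1 is the kinase that phosphorylates UPF1, SMG8 and SMG9 form a complex with SMG1 and restrain it, and SMG5 and SMG6 bind phosphorylated UPF1, SMG6 as the endonuclease that cuts the mRNA. Several NMD factor mRNAs, those of SMG5 and UPF3B among them, are known to be NMD targets themselves. hnRNPC is a nuclear protein with affinity for runs of uridine. Where such a run lies in an intron, its binding can keep splicing factors away. ADAR edits adenosine to inosine (A-to-I) in base-paired RNA.

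Study 1 used a STING-deficient clone that carried a Cas9 transgene, so the groups compared shared both modifications and the values are those of 1 clone. Cells received a nontarget gRNA (CTRL) or gRNAs against GFP, ADAR, hnRNPC, or ADAR and hnRNPC together (ADAR+hnRNPC). Total RNA was sequenced on days 3, 4, and 5, and on day 4 also from CTRL cells given IFN-α. That gave 16 groups of 3 libraries (48 in all). Study 2 used a Cas9 clone with intact STING, other gRNAs, and day 4 alone. Its 9 groups of 2 libraries (18 in all) were total and cytosolic RNA of CTRL, hnRNPC-, ADAR-, and ADAR+hnRNPC-targeted cells, and nuclear RNA of hnRNPC-targeted cells. Gene counts per library ranged from 95107690 to 152829008 in study 1 and from 49666958 to 73873756 in study 2. HNRNPC had 294 to 417 CPM (counts relative to library size, scaled by TMM factors) in the 18 libraries of study 1 with an hnRNPC gRNA and 725 to 869 CPM in the 30 without. ADAR mRNA differed little from CTRL in ADAR-targeted cells of study 1 (log2 fold change −0.03 on day 5, adjusted p = 0.85). Editing, given below with the limits of its site list, is the other readout of ADAR targeting there. In total RNA of study 2, ADAR mRNA was lower by log2 fold change (−0.77, adjusted p = 0.0047). Of 8 monocytic markers 7 had a median over 1 CPM in study 1 and 6 in study 2, against 0 of 3 in both studies for each of the T cell, epithelial, erythroid, and fibroblast lists. In bulk RNA, fewer cells of a kind and less RNA per cell cannot be told apart.

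The gRNA target sites are shown because they define the groups. Each was found once in its gene, in a coding exon, and is printed 5′ to 3′ with the protospacer in lower case and the PAM in capitals. All lie on the + strand of GRCh37, opposite to the genes.
HNRNPC, study 1, chr14:21702284-21702306: gagattcccaatgaatacacGGG
HNRNPC, study 2, chr14:21702173-21702195: ctcattaacatactgaacgaAGG
ADAR, study 1, chr1:154574128-154574149: tatatctcgggccttggtaAGG

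The intron results below turn on intron 5 of UPF3A and intron 3 of UPF2. Their longest runs of uridine are shown on the strand of the gene, with T for U and the run in capitals (GRCh37). The run in UPF3A has 16 bases and those in UPF2 have 26 and 17 bases.
UPF3A intron 5, chr13:115056203-115056232, + strand: ttttttcTTTTTTTTTTTTTTTTgaggcag
UPF2 intron 3, chr10:12066929-12066958, − strand: tgTTTTTTTTTTTTTTTTTTTTTTTTTTgt
UPF2 intron 3, chr10:12065503-12065532, − strand: tctctaTTTTTTTTTTTTTTTTTagtagag
Runs of this kind were common. A run of 9 or more T on the gene strand was in 15 of the 24 tested regions of the NMD factors (62.5%), against 66.9% of the 20399 tested regions inside exactly 1 tested gene. Intron 3 of UPF2 held 9 such runs, and 21.6% of the 1493 regions of like length held as many. Intron 5 of UPF3A held 1, as did, or exceeded, 76.4% of 2511 regions of like length.

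The genes lie on chromosomes 1, 10, 13, 16, 17, 19, and X of GRCh37. UPF1 (ENSG00000005007.8) is at chr19:18942768-18979039, UPF2 (ENSG00000151461.15) at chr10:11962021-12085169, UPF3A (ENSG00000169062.10) at chr13:115047076-115071292, and UPF3B (ENSG00000125351.6) at chrX:118967985-118986961. SMG1 (ENSG00000157106.12) is at chr16:18816182-18937730, SMG5 (ENSG00000198952.7) at chr1:156219015-156252616, SMG6 (ENSG00000070366.9) at chr17:1963133-2207079, SMG8 (ENSG00000167447.8) at chr17:57286761-57292600, and SMG9 (ENSG00000105771.9) at chr19:44232135-44259114. The exons of SMG6 share 2419 bases (22.9% of their length) with HIC1 on the opposite strand, and 422 bases of SMG8 exons (11.3%) belong to another gene on the same strand as well. SMG1 has 7 near-identical partial copies on chromosome 16. Counts of these 3 genes are therefore less certain.

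Per kilobase of exon, SMG5 had the highest level in CTRL cells of day 4, 45.5 ± 2.23 CPM per kb (SD, n = 3 here and in the rest of this paragraph). UPF2 followed with 21.7 ± 1.55, UPF1 with 17.8 ± 1.04, SMG8 with 11.3 ± 0.177, and UPF3B with 9.24 ± 0.169 CPM per kb. SMG9 (4.68 ± 0.512), UPF3A (4.65 ± 0.0976), and SMG1 (4.45 ± 0.961) could not be ordered within their spread. SMG6 was lowest, at 0.966 ± 0.0868 CPM per kb.

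**Figure D1:**
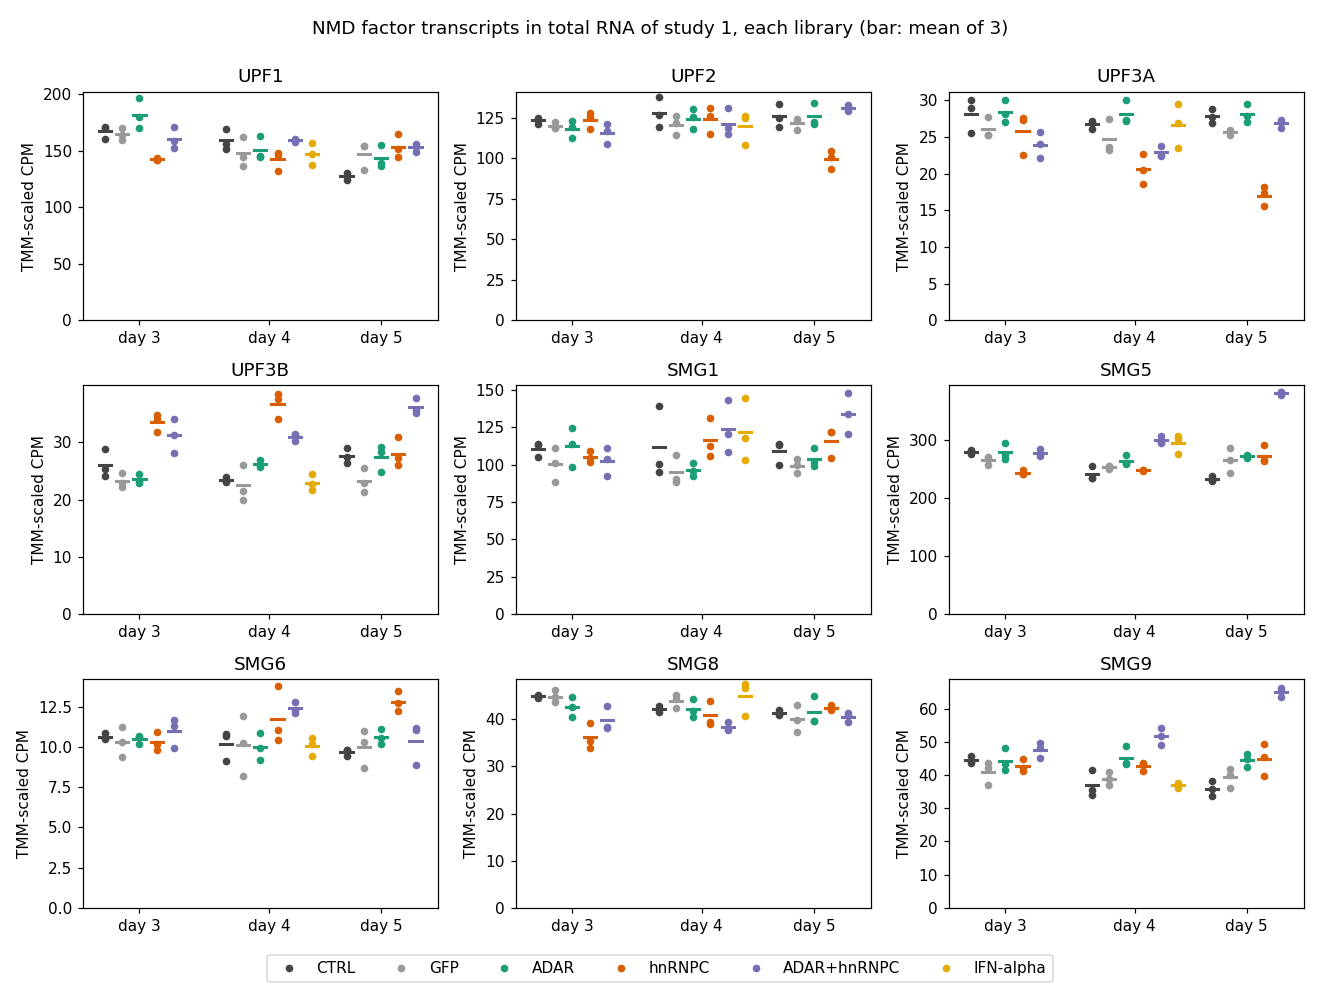
CPM of each NMD factor in every library of study 1 (points) and the mean of each group (bar), by gRNA group and day, each panel with its own y axis. UPF3A is low in hnRNPC-targeted cells on days 4 and 5, UPF3B is high there on days 3 and 4, and SMG5 and SMG9 are highest in ADAR+hnRNPC-targeted cells on day 5.

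The comparison of hnRNPC-targeted with CTRL cells of the same day asked how the NMD factors changed after loss of hnRNPC. The adaptors of the exon junction complex moved in opposite directions: UPF3B was higher on days 3 and 4, and UPF3A was lower on days 4 and 5. On day 5, UPF2 was also lower and UPF1, SMG5, SMG6, and SMG9 were higher. A gene passed at an adjusted p of at most 0.05 (quasi-likelihood test of edgeR, p-values adjusted by Benjamini-Hochberg over all genes tested). Of the 9 NMD factors, 4 passed on day 3 (1 higher, 3 lower), 4 on day 4 (2 higher, 2 lower), and 6 on day 5 (4 higher, 2 lower). Among all genes tested, 38% passed on day 3 (12.6% higher, 25.4% lower), 51.4% on day 4 (23.4% higher, 28% lower), and 64.8% on day 5 (29.6% higher, 35.2% lower), so the shares of the NMD factors lay near those of all genes. The median absolute log2 fold change of the 9 was 0.13, 0.16, and 0.27 on days 3, 4, and 5, against 0.18, 0.24, and 0.33 over all genes tested.

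UPF3A, the paralog that can take the place of UPF3B, had 27.7, 26.9, and 28.8 CPM in CTRL cells on day 5 and 17.3, 18.1, and 15.6 CPM in hnRNPC-targeted cells. The groups did not overlap. The log2 fold change was −0.71 (SE 0.08, adjusted p = 1.3e-09), a level 0.612 times that of CTRL cells. On day 4, CTRL cells had 26.1, 26.9, and 27.2 CPM and hnRNPC-targeted cells 22.7, 20.5, and 18.7 CPM, a log2 fold change of −0.38 (SE 0.08, adjusted p = 0.00016). On day 3 the groups overlapped (−0.13, 95% interval −0.28 to 0.03).

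UPF3B, the main adaptor between UPF2 and the exon junction complex, had 23.2, 23.9, and 23.1 CPM in CTRL cells on day 4. In hnRNPC-targeted cells it had 38.5, 37.6, and 34.1 CPM, with no overlap and a log2 fold change of 0.65 (SE 0.08, adjusted p = 2.3e-08). On day 3 the values were 28.9, 25.3, and 24.1 CPM in CTRL cells and 34.8, 34.1, and 31.8 CPM after targeting (log2 fold change 0.36, SE 0.08, adjusted p = 0.00056). On day 5 the groups overlapped, with 27.4, 29.1, and 26.4 CPM against 26.0, 30.9, and 27.2 CPM. The day 5 log2 fold change was 0.02 (95% interval −0.14 to 0.18), and it was 0.27 (adjusted p = 0.0046) when GFP-targeted cells were the control. Thus the day 5 result for UPF3B depended on the control group.

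UPF2, the bridge between UPF1 and the UPF3 proteins, did not pass before day 5, when it had 119, 133, and 124 CPM in CTRL cells and 93.3, 105, and 101 CPM in hnRNPC-targeted cells. The groups did not overlap, and the log2 fold change was −0.34 (SE 0.06, adjusted p = 1.5e-05). The intervals on days 3 and 4 were −0.12 to 0.13 and −0.17 to 0.08 on the log2 scale.

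UPF1, the helicase, had 160.4, 171, and 169.6 CPM in CTRL cells on day 3 and 144, 141, and 142 CPM in hnRNPC-targeted cells (log2 fold change −0.23, SE 0.07, adjusted p = 0.0059). By day 5, CTRL cells had 130.1, 124, and 128 CPM and hnRNPC-targeted cells 165, 145, and 151 CPM (log2 fold change 0.27, SE 0.07, adjusted p = 0.00062). Between these days UPF1 fell in CTRL cells (day 5 against day 3, log2 fold change −0.39, adjusted p = 4.6e-05), and hnRNPC-targeted libraries lay between 132 and 165 CPM over the 3 days. With GFP-targeted cells as the control, the day 5 difference was 0.06 (adjusted p = 0.42). The day 4 call (−0.16, adjusted p = 0.042) was lost without CTRL replicate 1, CTRL replicate 2, or hnRNPC replicate 1 (adjusted p = 0.21, 0.055, and 0.22). It was also lost by DESeq2 (adjusted p = 0.071) and by edgeR with GFP-targeted cells as the control (−0.05, adjusted p = 0.52).

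SMG5, which binds phosphorylated UPF1 and leads to decay and to UPF1 dephosphorylation, followed a similar course. It had 275, 281, and 283 CPM in CTRL cells and 247, 241, and 242 CPM in hnRNPC-targeted cells on day 3 (log2 fold change −0.20, SE 0.05, adjusted p = 0.00085). On day 5 it had 238, 231, and 229 CPM in CTRL cells and 290.5, 264, and 262 CPM after targeting (0.23, SE 0.05, adjusted p = 6.4e-05). Against GFP-targeted cells, which had 266, 243, and 285 CPM, the day 5 difference was 0.04 (adjusted p = 0.44). SMG5 and SMG9 both fell in CTRL cells from day 3 to day 5 (log2 fold change −0.27, adjusted p = 7.5e-05, and −0.31, adjusted p = 0.002). With UPF1, these were the 3 of 9 NMD factors that passed in this comparison of CTRL days, against 25.6% of all genes.

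SMG6, the endonuclease, had 9.42, 9.83, and 9.81 CPM in CTRL cells on day 5 and 12.7, 13.5, and 12.2 CPM in hnRNPC-targeted cells, without overlap (log2 fold change 0.40, SE 0.11, adjusted p = 0.0012). Among the partners of the SMG1 kinase, SMG9 had 38.1, 35.7, and 33.8 CPM in CTRL cells on day 5 against 49.3, 45.5, and 39.9 CPM (0.32, SE 0.07, adjusted p = 0.00023). The day 4 call of SMG9 (0.21, adjusted p = 0.018) was lost without CTRL replicate 2, CTRL replicate 3, or hnRNPC replicate 1 (adjusted p = 0.075, 0.13, and 0.056). It was also lost by edgeR with GFP-targeted cells as the control (0.13, adjusted p = 0.12). SMG8 was lower on day 3, with 44.7, 44.6, and 45.2 CPM in CTRL cells and 35.3, 34.0, and 39.2 CPM after targeting (−0.31, SE 0.06, adjusted p = 9.3e-05). By day 5 its groups overlapped (0.04, 95% interval −0.08 to 0.15). SMG1 did not pass on any day, and its libraries in CTRL cells of day 4 ranged from 95.3 to 139.7 CPM.

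These responses to hnRNPC targeting differed between day 3 and day 5 for 8 of the 9 NMD factors (5 higher and 3 lower on day 5), against 48% of all genes. The day 5 response was higher by 0.50 for UPF1, 0.43 for SMG5, 0.45 for SMG6, 0.35 for SMG8, and 0.38 for SMG9 on the log2 scale. It was lower by log2 differences of −0.34 for UPF2, −0.58 for UPF3A, and −0.34 for UPF3B. SMG1 was the exception (0.16, 95% interval −0.17 to 0.50). The call for UPF3B was lost without CTRL day 3 replicate 3 (adjusted p = 0.0503) or hnRNPC day 5 replicate 1 (adjusted p = 0.052). The CTRL change over time given above enters these differences.

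**Figure D2:**
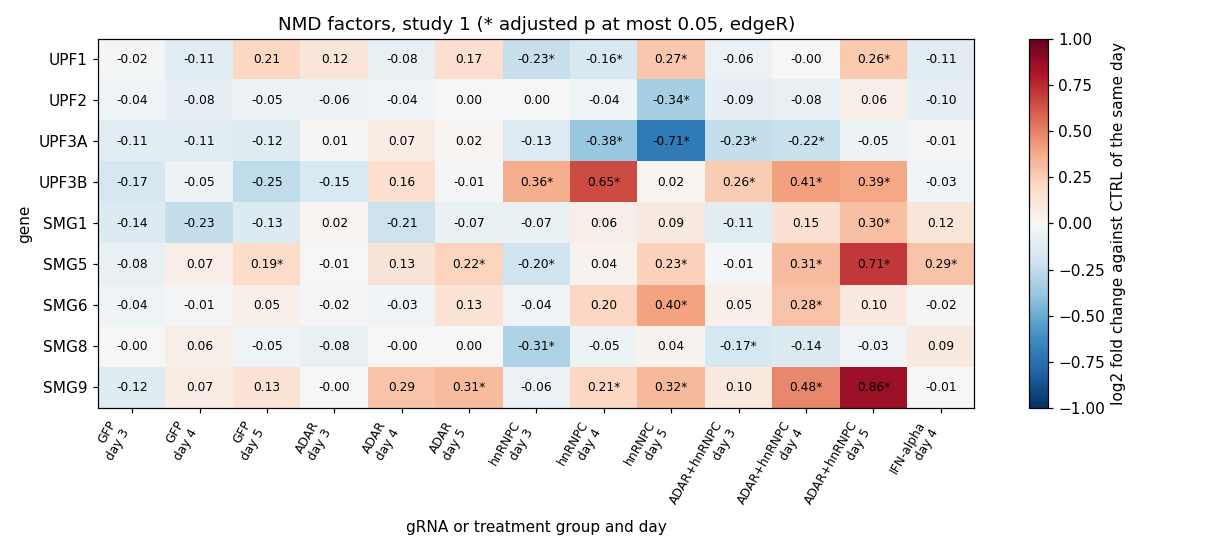
Log2 fold changes of the 9 NMD factors (lines of the map) against CTRL cells of the same day in study 1, by group and day (columns), with the value in each cell and a mark where the adjusted p was at most 0.05. UPF3A is most negative under hnRNPC targeting on day 5 (−0.71), and SMG9 and SMG5 are most positive under ADAR+hnRNPC targeting on day 5 (0.86 and 0.71).

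ADAR+hnRNPC-targeted cells showed another pattern: SMG5 and SMG9 had their highest fold changes of study 1 on day 5, UPF3B was higher on all 3 days, and UPF2 and UPF3A were near the CTRL level on day 5. On day 3, 3 of 9 NMD factors passed (1 higher, 2 lower; 28.7% of all genes), on day 4, 5 passed (4 higher, 1 lower; 57%), and on day 5, 5 passed (all higher; 73.5% of all genes, 34.5% higher and 39% lower). The share of the NMD factors was thus close to the background on days 3 and 4, and on day 5 it was below the share of all genes that passed and above the share that were higher. The comparisons with CTRL share the same CTRL libraries.

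SMG5 had 381, 377, and 381 CPM in ADAR+hnRNPC-targeted cells on day 5, 1.63 times its level in CTRL cells (238, 231, and 229 CPM), and no library of another group reached that level. The log2 fold change was 0.71 (SE 0.05, adjusted p = 3.8e-16). On day 4 it had 296, 295, and 305 CPM against 254.8, 234, and 234 CPM in CTRL cells (0.31, adjusted p = 6.8e-07), and on day 3 the groups overlapped. SMG9 had 65.2, 63.6, and 66.3 CPM on day 5, 1.81 times its level in CTRL cells (38.1, 35.7, and 33.8 CPM), with a log2 fold change of 0.86 (SE 0.07, adjusted p = 4.7e-13). On day 4 it had 51.9, 49.0, and 54.1 CPM against 41.6, 35.6, and 33.9 CPM (0.48, adjusted p = 7.9e-07). Both day 5 calls held without any single library.

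UPF3B had 35.1, 37.7, and 35.6 CPM in ADAR+hnRNPC-targeted cells on day 5, above all 3 CTRL libraries (log2 fold change 0.39, SE 0.08, adjusted p = 6.2e-05), and also passed on day 4 (0.41, adjusted p = 5.9e-05). UPF1 had 154, 156, and 149 CPM on day 5 (0.26, adjusted p = 0.00064) but differed from GFP-targeted cells by 0.06 (adjusted p = 0.45). SMG1 had 121, 148, and 134 CPM on day 5 against 113, 114, and 99.98 CPM in CTRL cells (0.30, adjusted p = 0.024), a call lost without CTRL replicate 3 (adjusted p = 0.106) or ADAR+hnRNPC replicate 2 (adjusted p = 0.131). UPF3A passed on day 4 with 23.8, 22.5, and 22.5 CPM (−0.22, adjusted p = 0.017; 0.051 without ADAR+hnRNPC replicate 2). That call was also lost by DESeq2 (adjusted p = 0.066) and by edgeR with GFP-targeted cells as the control (−0.11, adjusted p = 0.24). On day 5 UPF3A had 27.1, 27.3, and 26.2 CPM, where the difference from CTRL cells was −0.05 (95% interval −0.21 to 0.11). UPF2 had 131, 132, and 129 CPM on day 5, within the range of CTRL cells (0.06, 95% interval −0.07 to 0.18). SMG6 passed on day 4 (0.28, adjusted p = 0.023), not without CTRL replicate 3 (adjusted p = 0.14) or ADAR+hnRNPC replicate 2 (adjusted p = 0.067). The 3 calls of day 3 (UPF3A −0.23, UPF3B 0.26, SMG8 −0.17) were all lost without CTRL replicate 2 or without ADAR+hnRNPC replicate 1.

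The interaction of ADAR and hnRNPC targeting, the response to hnRNPC targeting in cells with an ADAR gRNA minus that in cells without, was tested per day. On day 5, 5 of 9 NMD factors passed (4 higher, 1 lower), against 47.6% of all genes. The lower UPF2 and UPF3A of hnRNPC-targeted cells were not seen with ADAR targeting, with interactions of 0.39 (SE 0.09, adjusted p = 0.00037) and 0.64 (SE 0.11, adjusted p = 1.6e-05). UPF3B (0.38, adjusted p = 0.0068) and SMG5 (0.26, adjusted p = 0.0015) were also higher, and SMG6 was lower (−0.44, adjusted p = 0.015; 0.071 without ADAR+hnRNPC replicate 3). These interactions rest on the CTRL libraries of day 5. With GFP-targeted cells as the control, the response to hnRNPC targeting on day 5 was 0.27 for UPF3B and 0.04 for SMG5. The interaction was not tested with that control. On day 4, UPF3B alone passed (−0.41, adjusted p = 0.018; 11.1% of all genes), and its call was lost without CTRL replicate 1 (adjusted p = 0.0501) or ADAR replicate 2 (adjusted p = 0.055). On day 3, 0 of 9 passed by edgeR, with 2 at an unadjusted p under 0.05, 0 by DESeq2 and 0% of all genes.

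With ADAR targeting alone, SMG5 and SMG9 were higher than in CTRL cells on day 5. SMG5 had 272, 268, and 274 CPM (log2 fold change 0.22, adjusted p = 0.0033) and SMG9 46.4, 42.5, and 44.9 CPM (0.31, adjusted p = 0.0074), both above all CTRL libraries of that day. These were 2 of 9, against 9.22% of all genes. On day 4, 0 passed by edgeR, with 2 at an unadjusted p under 0.05 and 1 by DESeq2 (SMG9, 0.29, adjusted p = 0.055 by edgeR; 0.644% of all genes by edgeR). On day 3, 0 passed by either tool, with 0 unadjusted and 0% of all genes. In GFP-targeted cells, a further control, SMG5 passed on day 5 (0.19, adjusted p = 0.017; 1 of 9, against 7.3% of all genes). The SMG5 libraries of ADAR-targeted cells all lay within the range of GFP-targeted cells on that day (243 to 285 CPM). Those of SMG9 lay above the GFP range (36.1 to 41.8 CPM). ADAR-targeted and GFP-targeted cells were not compared by a test, so the day 5 result for SMG5 cannot be assigned to ADAR targeting. On days 3 and 4 of GFP-targeted cells, 0 passed by edgeR or DESeq2, with 0 at an unadjusted p under 0.05 and 0.0303% and 0.0227% of all genes. IFN-α raised SMG5 to 275, 301, and 306 CPM from 254.8, 234, and 234 CPM (0.29, SE 0.05, adjusted p = 1.8e-05). SMG5 was the 1 of 9 NMD factors that passed with IFN-α, against 18.3% of all genes, and SMG9 differed by −0.01 (95% interval −0.15 to 0.14).

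Intron counts asked whether reads on the introns of the NMD factors changed apart from the gene. Regions are numbered as introns of the principal transcript, and the intron was tested with the count of its gene as an offset. In hnRNPC-targeted cells, intron 5 of UPF3A and intron 3 of UPF2 took a larger share of their gene's count on days 4 and 5. These were the 2 of 24 regions that passed as higher on each of these days, against 11.9% and 12.9% of all regions tested, and 0 were lower, against 2.01% and 5.37% (edgeR; with a replicate block 3 regions were lower on day 5). The share in the NMD factors was therefore near or below that of all regions.

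Intron 5 of UPF3A (chr13:115052105-115056963, 4859 bases) had 3.69, 3.72, and 4.16 CPM in CTRL cells on day 5 and 3.54, 4.49, and 4.18 CPM in hnRNPC-targeted cells. The intron count itself did not pass (log2 fold change 0.08), whereas the gene count fell, so the intron's count relative to the gene's rose from 13.9 ± 0.554% to 24 ± 3.19% (SD, n = 3). Relative to the gene the log2 fold change was 0.79 (SE 0.19, adjusted p = 0.0021) on day 5, 0.76 (SE 0.19, adjusted p = 0.0037) on day 4, and 0.55 (adjusted p = 0.055) on day 3. Genes were counted over all annotated exons, whereas introns were cut by removing exons of APPRIS transcripts alone. Some reads may therefore enter both counts, which was not tested, and this percentage is a ratio of counts and not a share of transcripts.

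Intron 3 of UPF2 (chr10:12056184-12070743, 14560 bases) rose in itself on day 4. It had 12.4, 11.8, and 10.5 CPM in CTRL cells and 18.9, 17.4, and 16.6 CPM in hnRNPC-targeted cells, without overlap (log2 fold change 0.61, adjusted p = 0.0011). On day 5 it had 12.8, 10.2, and 15.7 CPM against 15.5, 15.8, and 19.9 CPM, with overlap (0.40, adjusted p = 0.024, lost without CTRL replicate 1, CTRL replicate 2, or hnRNPC replicate 3). Relative to the gene, the log2 fold change was 0.66 (SE 0.16, adjusted p = 0.0037) on day 4 and 0.73 (SE 0.16, adjusted p = 0.0011) on day 5. The intron count relative to the gene count was 9.07 ± 1.12% in CTRL cells and 14.3 ± 1.88% in hnRNPC-targeted cells on day 4, and 10.3 ± 2.51% and 17.1 ± 2.35% on day 5 (SD, n = 3). The relative calls of both introns on days 4 and 5 held without any single library. On day 3, the only region to pass relative to its gene in the main fit was intron 51 of SMG1 (0.75, SE 0.22, adjusted p = 0.017), named here for that reason. Among all regions, 9.92% were higher and 0.941% lower. Intron 51 of SMG1 had 1.82, 1.99, and 2.31 CPM in CTRL cells and 3.53, 3.57, and 2.66 CPM after targeting. With a replicate block, intron 3 of UPF2 (0.43) and intron 5 of UPF3A (0.56) also passed as higher on day 3.

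**Figure D3:**
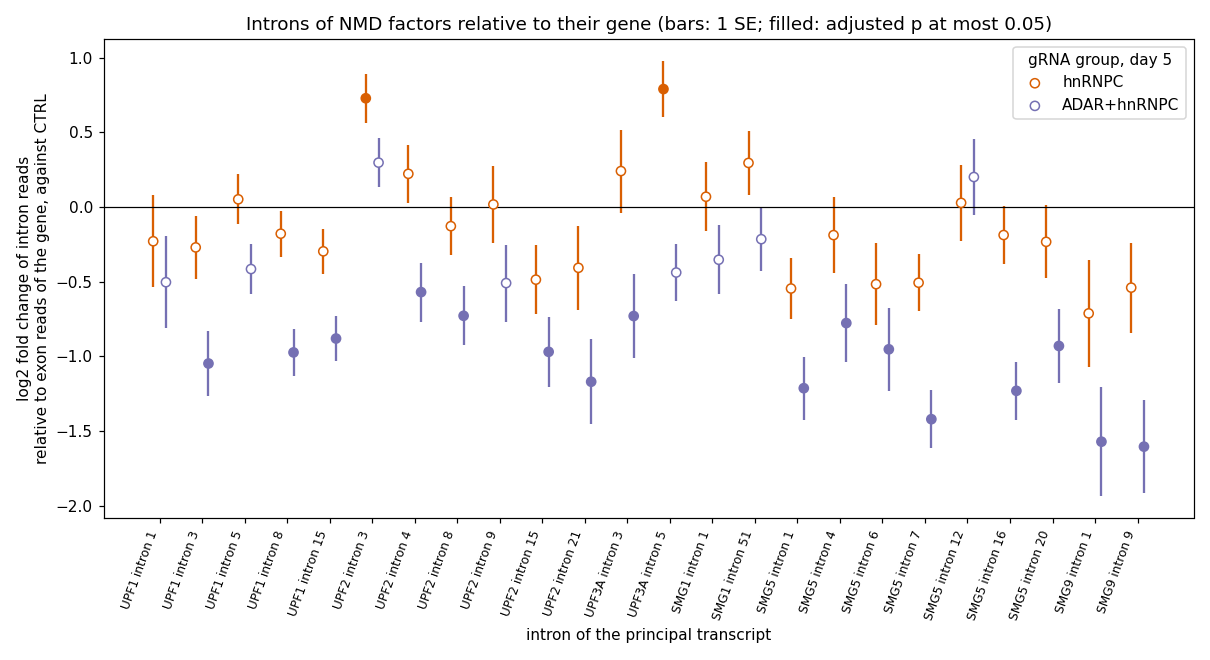
Log2 fold change against CTRL cells on day 5 of each tested intron relative to its gene, with bars of 1 SE, for hnRNPC targeting and for ADAR+hnRNPC targeting. Intron 3 of UPF2 (0.73) and intron 5 of UPF3A (0.79) stand highest with hnRNPC targeting, and most introns lie below 0 with ADAR+hnRNPC targeting.

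In ADAR+hnRNPC-targeted cells on day 5, the introns of the NMD factors fell relative to their genes. Of 24 regions, 16 passed as lower and 0 as higher, against 21% lower and 12% higher among all regions tested. The median relative log2 fold change was −0.83 for the 24 regions and −0.14 over all regions tested. The lower regions were 6 of 7 in SMG5, 2 of 2 in SMG9, 3 of 5 in UPF1, 4 of 6 in UPF2, and 1 of 2 in UPF3A. Regions of 1 gene share its count and are not independent. By intron count alone, 11 were lower and 2 higher, against 36.1% and 14.4% of all introns, so the genes that rose did so without a rise of most of their introns. Intron 9 of SMG9 (chr19:44238648-44241748) had 5.66, 4.06, and 4.51 CPM in CTRL cells and 2.85, 2.40, and 3.23 CPM in ADAR+hnRNPC-targeted cells, with no overlap. Relative to SMG9 it fell by 1.61 on the log2 scale (SE 0.31, adjusted p = 9.4e-05), from 13.2 ± 1.75% to 4.33 ± 0.55% of the gene count (SD, n = 3). Intron 7 of SMG5 (chr1:156238207-156242110) fell from 1.30 ± 0.233% to 0.485 ± 0.107% of the gene count (relative log2 fold change −1.42, SE 0.19, adjusted p = 3e-07). Intron 12 of SMG5 was an exception, higher by its own count (0.91, adjusted p = 0.0032). Intron 3 of UPF2 was higher relative to the gene on day 4 (0.59, adjusted p = 0.011; 10.4% of all regions were higher), and intron 5 of UPF3A had 10.2 ± 0.467% of the gene count on day 5. In ADAR-targeted cells, 0 of 24 regions passed by edgeR or limma, by intron count or relative to the gene, on any day. At an unadjusted p under 0.05 by edgeR there were 2 regions by intron count and 1 relative to the gene, all on day 4. By intron count, 0% of all regions passed with ADAR targeting on day 3 and 0.00457% on day 4 (all lower), and on day 5 the shares were 0.00457% (higher) and 0.00914% (lower). Relative to the gene, 0.0049% passed on day 4 (all lower) and 0% on the other days. The introns named in this paragraph, other than those of UPF2 and UPF3A, were chosen after their values were seen.

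Intron 3 of UPF2 also held the 2 editing-cluster-rich regions (ECRs, editing clusters with flanks, as the authors defined them) that were tested within the NMD factors. The one at chr10:12066347-12069020 was higher in hnRNPC-targeted cells on all 3 days, by log2 fold changes of 0.55 (adjusted p = 0.012), 0.67 (adjusted p = 0.0015), and 0.48 (adjusted p = 0.017). The other, at chr10:12060888-12062937, was higher on days 3 and 4 (0.58, adjusted p = 0.022, and 0.69, adjusted p = 0.0043) but not on day 5 (0.43, adjusted p = 0.062). Among the 2528 ECRs tested, 23%, 27.3%, and 21.4% were higher on these days. In study 2 the first ECR differed by 0.49 (adjusted p = 0.25) in total and 0.39 (adjusted p = 0.41) in cytosolic RNA of hnRNPC-targeted cells, and the other by −0.02 (adjusted p = 0.98) and 0.93 (adjusted p = 0.031). These ECRs lie inside the intron tested above and share its reads.

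A-to-I editing sites were listed for 6 of the 9 genes, and all lay in introns on the strand of the gene: 244 in UPF2 (all in intron 3), 161 in SMG5, 75 in UPF3A, 48 in SMG1, 45 in SMG8, and 3 in UPF1. Examples are shown with the edited base as the capital A, on the gene strand in GRCh37, because the editing result rests on such sites. They are the sites of UPF2 and UPF3A most edited in CTRL cells on day 4, among those with at least 10 reads in every library compared. A lower share in ADAR-targeted cells is favored by this choice.
UPF2 intron 3, chr10:12067911-12067931, − strand: agtctcagctActtgggggct
UPF2 intron 3, chr10:12067915-12067935, − strand: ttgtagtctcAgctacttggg
UPF3A intron 3, chr13:115049748-115049768, + strand: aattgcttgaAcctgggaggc
UPF3A intron 5, chr13:115052909-115052929, + strand: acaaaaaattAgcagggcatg
At the first of these, 9.80% of 51 reads were edited in CTRL cells on day 4 and 0% of 39 in ADAR-targeted cells, which allows a share of up to 7.69% (3 reads of 39, for counting error alone). At the UPF3A site in intron 5, 11.7% of 77 and 10% of 60 reads were edited, so single sites were too thin to show a difference.

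Edited reads were summed over sites and compared between the 6 libraries per day with an ADAR gRNA (ADAR, ADAR+hnRNPC) and the 6 without (CTRL, hnRNPC). Each side joins 2 gRNA groups that can differ in editing, and the test treated all libraries as exchangeable. Per the legends the data come from 3 independent experiments, so 6 libraries are not 6 independent replicates. The p-values of these tests, here and below, may therefore be too small. Editing was lower with an ADAR gRNA in 3 of the 6 comparisons that could be made, in UPF3A on days 3 and 4 and in UPF2 on day 4. The authors listed a site only if it reached a minimum editing frequency in some sample with intact ADAR. That choice favors higher values in libraries without an ADAR gRNA, here and in the comparisons below, and its part was not tested. With at least 10 reads per site and library, UPF3A had 51 sites on day 4, edited at 2.71% without and 1.18% with an ADAR gRNA (adjusted p = 0.026, exact two-sided permutation test), and 48 sites on day 3 at 1.86% and 0.892% (adjusted p = 0.026, exact permutation test). On day 5 the levels were 2.79% and 1.88% (adjusted p = 0.26, exact permutation test). There the groups with an ADAR gRNA differed from each other: ADAR-targeted libraries had 1.67, 0.527, and 0.666%, whereas ADAR+hnRNPC-targeted libraries had 2.78, 2.89, and 2.74%, above all CTRL libraries (2.34, 2.23, and 1.52%). hnRNPC-targeted libraries had 3.56, 4.56, and 2.52%. UPF2 kept 5 sites on day 4, at 3.20% and 1.24% (adjusted p = 0.026, exact permutation test). SMG5 and SMG8 kept 2 sites each, on day 3 alone, and did not pass (SMG5 0.575% without and 1.90% with an ADAR gRNA, SMG8 1.59% and 0%). These were 6 comparisons, and the smallest unadjusted p that 6 against 6 libraries can give, if treated as exchangeable, is 0.00216.

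With no minimum of reads, an alternative added after the data were seen, nearly all sites entered. UPF2 then had 5.17 ± 1.13% without and 2.83 ± 0.594% with an ADAR gRNA on day 5 (SD, 6 libraries each, adjusted p = 0.013, exact permutation test). Its libraries on day 5 were edited at 4.19, 5.17, and 3.72% in CTRL, 6.90, 5.66, and 5.37% in hnRNPC-targeted, 2.45, 2.06, and 2.41% in ADAR-targeted, and 3.48, 3.20, and 3.38% in ADAR+hnRNPC-targeted cells. No library with an ADAR gRNA reached one without. SMG5 had 4.21 ± 1.32% and 1.72 ± 0.609% on day 5 (adjusted p = 0.013, exact permutation test). SMG1 had the highest editing, at 11.8 ± 1.99% and 5.64 ± 2.03% on day 4 (adjusted p = 0.013, exact permutation test), from a median of 306 reads per library. UPF3A (2.54% and 1.57%, adjusted p = 0.0891) and SMG8 (4.01% and 2.06%, adjusted p = 0.138) did not pass on day 5 (exact permutation test). Many of these reads come from sites with few reads in a library, and read counts bound only the counting error.

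**Figure D4:**
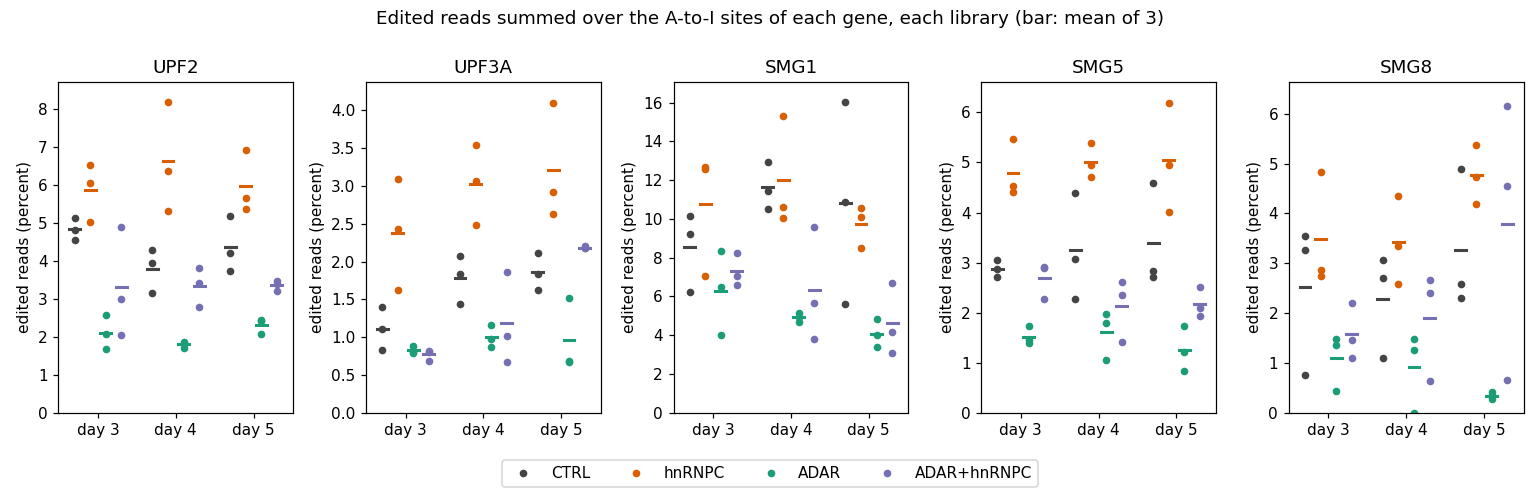
Percentage of edited reads summed over the sites of each gene with no minimum of reads, in each library of study 1 (points), by gRNA group and day, with 1 panel per gene and a y axis of its own. On day 5, ADAR- and ADAR+hnRNPC-targeted libraries lie below CTRL and hnRNPC-targeted libraries in UPF2 and SMG5.

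In study 2, hnRNPC targeting was compared with CTRL cells in total RNA and in cytosolic RNA with other gRNAs and 2 libraries per group. By edgeR, 0 of 9 NMD factors passed in either fraction (5.11% and 2.6% of all genes), with 1 each at an unadjusted p under 0.05 and 1 each by DESeq2 (SMG1 in total and UPF3B in cytosolic RNA). UPF3A had 26.7 and 19.5 CPM in total RNA of CTRL cells and 20.4 and 20.3 CPM after targeting (log2 fold change −0.18, 95% interval −0.48 to 0.11). UPF3B had 20.7 and 22.7 CPM in cytosolic RNA of CTRL cells and 26.1 and 29.1 CPM after targeting (0.35, 95% interval 0.14 to 0.56, adjusted p = 0.1). HNRNPC itself was lower by a log2 fold change of −0.69 (adjusted p = 0.037) in total RNA of study 2, against −1.18 on day 4 of study 1. The CTRL libraries of total RNA differed from each other for several NMD factors, such as SMG1 with 141 and 219 CPM and SMG8 with 41.8 and 29.7 CPM.

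In total RNA of study 2, which had no GFP-targeted group, SMG5 and SMG9 were also higher with ADAR targeting than in CTRL cells. SMG5 had 346 and 273 CPM in CTRL cells and 469 and 443 CPM in ADAR-targeted cells (log2 fold change 0.56, SE 0.14, adjusted p = 0.014), and SMG9 had 42.3 and 34.7 against 53.5 and 56.0 CPM (0.51, SE 0.11, adjusted p = 0.0085). These were 2 of 9 (12.9% of all genes). Without CTRL replicate 2 or either ADAR library 0 of 9 passed, and without CTRL replicate 1 there were 6. Compartment markers moved with this comparison: of 5, 3 were lower (NEAT1 −1.27, MALAT1 −1.15, MT-ND1 −1.50) and 0 higher, and in total RNA of ADAR+hnRNPC-targeted cells ACTB (−0.70) and GAPDH (−0.57) were lower. Their part in these results was not tested. In ADAR+hnRNPC-targeted cells, SMG5 (0.39, adjusted p = 0.036), SMG9 (0.32, adjusted p = 0.038), and UPF3B (−0.33, adjusted p = 0.029) passed, 3 of 9 against 34.7% of all genes, and none did without either ADAR+hnRNPC library.

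In cytosolic RNA, ADAR and ADAR+hnRNPC targeting gave the largest changes (comparisons added after the data were seen). SMG9 had 34.8 and 34.3 CPM in CTRL cells, 55.3 and 55.1 CPM in ADAR-targeted cells (log2 fold change 0.68, SE 0.11, adjusted p = 0.0004), and 66.1 and 62.9 CPM in ADAR+hnRNPC-targeted cells (0.90, SE 0.11, adjusted p = 1.5e-05). UPF3B had 20.7 and 22.7 CPM in CTRL cells, 30.1 and 32.3 CPM with ADAR targeting (0.53, adjusted p = 0.002), and 34.4 and 34.6 CPM with both gRNAs (0.67, adjusted p = 0.00015). SMG6 was lower in both, with 11.6 and 12.3 CPM in CTRL cells, 8.37 and 7.88 CPM (−0.56, adjusted p = 0.0031), and 8.50 and 9.27 CPM (−0.43, adjusted p = 0.0098). In all, 5 of 9 passed with ADAR targeting (4 higher, 1 lower; 22.7% of all genes) and 6 of 9 with ADAR+hnRNPC targeting (4 higher, 2 lower; 40.6%). The others were UPF2 (0.35 and 0.37) and UPF3A (0.44 and 0.39), whose calls were lost when any library was left out, and SMG1 with ADAR+hnRNPC targeting (−0.50, adjusted p = 0.023). The calls of SMG6 and SMG1 with ADAR+hnRNPC targeting were also lost in some of the fits without 1 library. Of the 5 compartment markers, NEAT1 was lower with ADAR targeting in cytosolic RNA (−1.01), and 4 were lower with ADAR+hnRNPC targeting (NEAT1 −1.41, MALAT1 −1.01, ACTB −0.59, GAPDH −0.38), and their part was not tested.

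**Figure D5:**
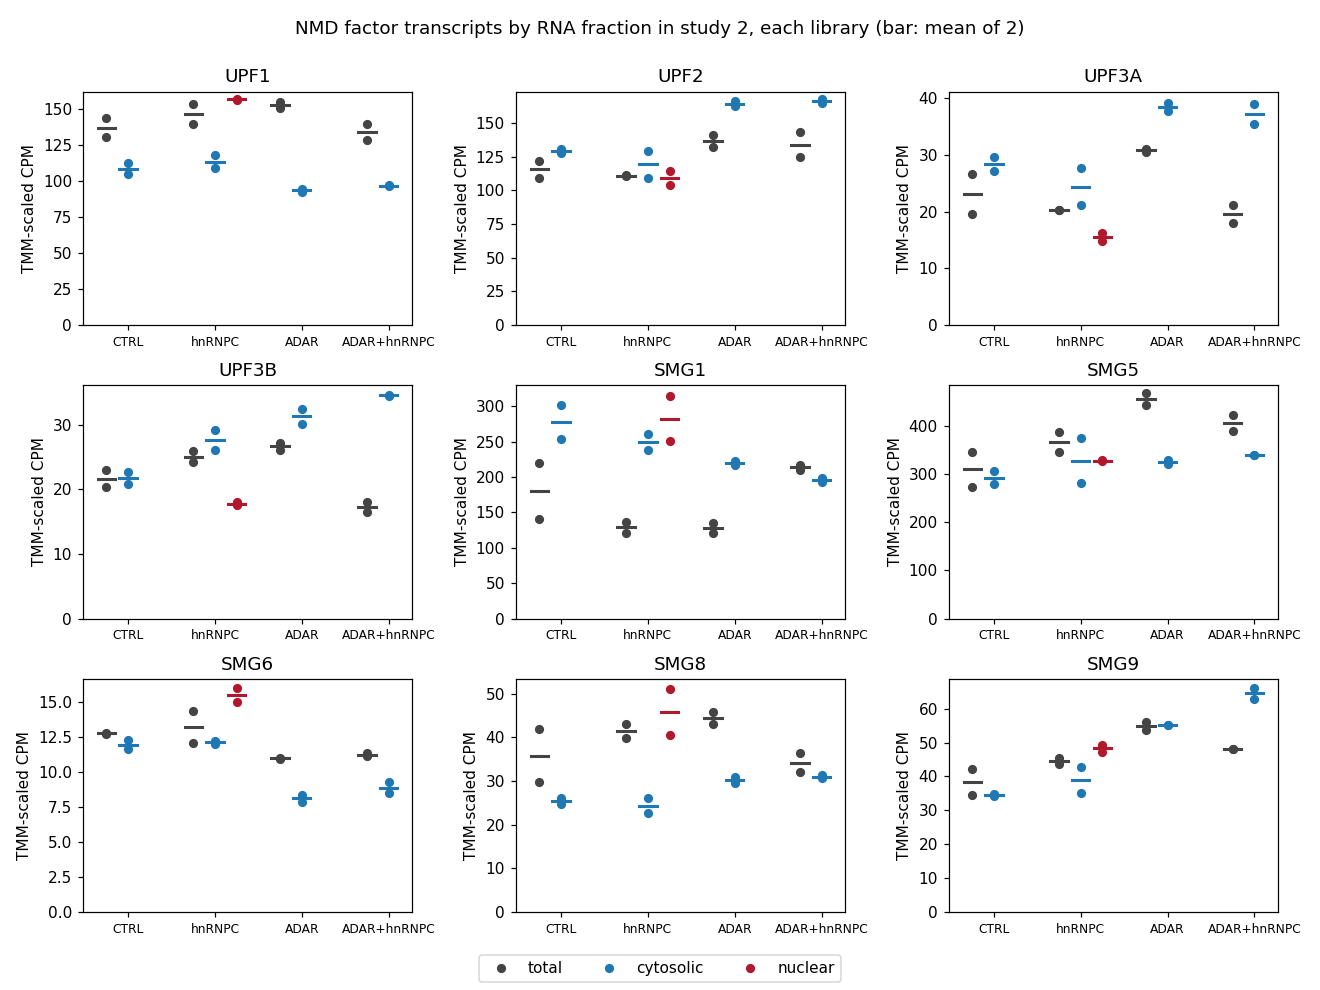
CPM of each NMD factor in every library of study 2 (points), by gRNA group and RNA fraction, each panel with its own y axis. UPF3B in ADAR+hnRNPC-targeted cells is at 18.1 and 16.5 CPM in total RNA and at 34.4 and 34.6 CPM in cytosolic RNA.

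UPF3B in ADAR+hnRNPC-targeted cells of study 2 was above CTRL in cytosolic RNA and below it in total RNA, the latter less surely. Total RNA had 18.1 and 16.5 CPM against 22.9 and 20.4 CPM in CTRL cells, and cytosolic RNA 34.4 and 34.6 CPM against 20.7 and 22.7 CPM. The call in total RNA was lost without either ADAR+hnRNPC library, by DESeq2 (adjusted p = 0.054), and by edgeR with no filter (adjusted p = 0.18). In total RNA of study 1 on day 4, UPF3B was instead higher with ADAR+hnRNPC targeting (means of 31.0 CPM against 23.4 CPM in CTRL cells). The change of the ratio of cytosolic to total RNA was 1.00 on the log2 scale (SE 0.15, adjusted p = 0.00088), and this held without any single library. SMG9 also passed (0.58, SE 0.16, adjusted p = 0.0498), a call lost in 7 of 8 fits without 1 library, so 2 of 9 passed, against 4.56% of all genes. With ADAR targeting 0 of 9 passed by edgeR (1 at an unadjusted p under 0.05, 0 by DESeq2; 1.71% of all genes), and with hnRNPC targeting 0 of 9 (0 unadjusted, 0 by DESeq2; 0% of all genes).

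On average over the 4 gRNA groups, the adaptors and SMG1 had higher CPM in cytosolic than in total RNA, and UPF1 and SMG8 lower CPM. The groups were not alike. Of the 9 NMD factors 8 passed (4 higher, 4 lower), against 76.4% of all genes. The median log2 difference of all genes was 0.17, and the size factors of DESeq2 shifted all values of this comparison by −0.11 and those of cytosolic against nuclear RNA by −0.25 relative to TMM. UPF3A (0.45, adjusted p = 3.8e-05), UPF3B (0.34, adjusted p = 2.3e-05), and SMG1 (0.56, adjusted p = 1.2e-05) lay above that median, and UPF2 (0.21, adjusted p = 0.0023) close to it. UPF1 (−0.47, adjusted p = 2.3e-07), SMG8 (−0.49, adjusted p = 1.5e-05), SMG5 (−0.25, adjusted p = 0.0034), and SMG6 (−0.25, adjusted p = 0.0012) lay below. For UPF3B the average rested mostly on ADAR+hnRNPC-targeted cells (means of 34.5 CPM in cytosolic and 17.3 CPM in total RNA), whereas the means in CTRL cells were 21.7 and 21.6 CPM, and hnRNPC-targeted libraries had 26.1 and 29.1 CPM in cytosolic and 24.1 and 25.9 CPM in total RNA. In ADAR+hnRNPC-targeted cells SMG1 went against its direction, with 209.6 and 217 CPM in total and 193 and 199 CPM in cytosolic RNA. The fractions were checked by RNAs of known place: the nuclear RNA MALAT1 was lower in cytosolic than in total RNA (−1.20) and ACTB was higher (0.42).

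Cytosolic and nuclear RNA of hnRNPC-targeted cells differed for 6 of 9 NMD factors (2 higher, 4 lower in cytosolic RNA; 71% of all genes, whose median was 0.27). SMG8 had 22.6 and 26.0 CPM in cytosolic and 51.0 and 40.5 CPM in nuclear RNA (−0.91, SE 0.15, adjusted p = 3.6e-05). UPF1 had 109 and 118 against 157 and 156 CPM (−0.47, adjusted p = 0.00046). UPF3A had 21.1 and 27.7 against 14.8 and 16.2 CPM (0.65, adjusted p = 0.00098), and UPF3B 26.1 and 29.1 against 17.6 and 17.99 CPM (0.63, adjusted p = 6.4e-05). SMG6 (−0.35, adjusted p = 0.014) and SMG9 (−0.30, adjusted p = 0.024) were lower, calls that some fits without 1 library lost. SMG1 had 238 and 261 CPM in cytosolic and 251 and 314 CPM in nuclear RNA (−0.18, adjusted p = 0.34, and −0.42 by DESeq2, adjusted p = 0.033), both above the 137 and 121 CPM of total RNA. For SMG1, the difference between cytosolic and total RNA therefore does not show where its RNA lies in the cell. SMG5 differed by 0.00 with TMM (95% interval −0.27 to 0.27) and −0.25 by DESeq2 (adjusted p = 0.04), so its direction depends on the scaling.

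Other parts of the pathway were counted as lists, chosen like the 9 genes with earlier results of these data known. Of the 8 other NMD factors, 5 were lower and 0 higher in hnRNPC-targeted cells on day 3, 5 lower and 2 higher on day 4, and 3 lower and 1 higher on day 5, where 25.4%, 28%, and 35.2% of all genes were lower and 12.6%, 23.4%, and 29.6% higher on these days. NCBP1, the large subunit of the nuclear cap-binding complex, fell on each day (log2 fold change −0.38, −0.59, and −0.93). RUVBL1, an ATPase that acts on SMG1 (−0.28, −0.47, and −0.64), and NBAS (−0.25, −0.33, and −0.38) were also lower on each day. Among translation termination factors, GSPT1, the GTPase release factor eRF3a that contacts UPF1, fell by log2 fold changes of −1.01, −1.29, and −1.37 (adjusted p = 9e-15, 3.7e-18, and 2.7e-19). GSPT1 was also lower in total RNA of hnRNPC-targeted cells in study 2 (−0.77, adjusted p = 0.0018). Its fall was larger than that of any of the 9 NMD factors. In the exon junction complex, 2, 1, and 0 of 4 tested genes were higher and 0, 0, and 1 lower on days 3, 4, and 5.

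Of the 7 tested decapping and decay factors, 0, 2, and 3 were higher and 2, 1, and 3 lower on days 3, 4, and 5, when 38%, 51.4%, and 64.8% of all genes passed in either direction. XRN1, the 5′ to 3′ exonuclease, fell with hnRNPC targeting (−0.37, −0.52, and −0.75) and was higher in ADAR+hnRNPC-targeted cells on day 5 (1.60, adjusted p = 3.3e-15). Among the 5 tested copies of SMG1, 1, 1, and 3 were higher (12.6%, 23.4%, and 29.6% of all genes) and 0 lower on the 3 days, SMG1P7 by 0.40, 0.52, and 0.56. Reads of these copies and of SMG1 cannot be fully told apart.

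Transcripts known as NMD targets were counted too. Of 8, 4, 5, and 4 were higher and 1 lower in hnRNPC-targeted cells on days 3, 4, and 5. Among all genes, 12.6%, 23.4%, and 29.6% were higher and 25.4%, 28%, and 35.2% lower on these days. The median log2 fold changes of the targets were 0.28, 0.40, and 0.32, against −0.05, −0.02, and −0.03 over all genes tested. In ADAR+hnRNPC-targeted cells on day 5, 7 were higher and 0 lower, with a median of 1.36 (−0.04 over all genes, of which 34.5% were higher and 39% lower). ATF3 rose by 0.90, 1.54, and 1.76 in hnRNPC-targeted cells and by 5.35 in ADAR+hnRNPC-targeted cells of day 5 (adjusted p = 2e-19), GADD45A by 0.60, 0.79, 1.04, and 2.40, and the pseudogene transcript RP9P by 0.36, 0.72, 0.62, and 1.98. TBL2 went the other way in hnRNPC-targeted cells (−0.82, −0.77, and −0.37). In cytosolic RNA of study 2, 7 of 8 were higher with ADAR+hnRNPC targeting (median 1.06, against −0.07 over all genes, of which 40.6% passed in either direction), TBL2 among them (2.07). The share of all genes that were higher in this comparison is not given here. ATF3, GADD45A, and GADD45B are also induced by cell stress, and the part of that in these values was not tested.

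Across the 16 group means of study 1, UPF2 and UPF3A had a Pearson r of 0.742, and UPF3A and SMG6 one of −0.82. The genes outside the lists with the profile most like UPF1 were NISCH (0.933), FBXL18 (0.913), and CARD9 (0.911), and those most like SMG5 were ZMIZ2 (0.963), TRPM2 (0.956), and NLRC5 (0.953). These values describe 16 group means that share controls, library preparation, and days.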

How the data were processed

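Total RNA depleted of ribosomal RNA was sequenced, and the authors aligned the reads to GRCh37 with STAR 2.5.4a and counted uniquely mapped reads with featureCounts. The deposited counts of genes, introns (gene intervals without exons of APPRIS transcripts), ECRs, and edited and total reads per site were used without change. The strand setting of the counting is not given in the sources used here, and 0 columns lacked a sample. Per the labels, study 1 had 48 libraries in 16 groups and study 2 had 18 in 9. According to the legends, the libraries of study 1 and the total and cytosolic libraries of study 2 come from independent experiments. For nuclear RNA this is not given in the sources used here. No group held duplicate libraries (lowest chi-square per gene 12.06).

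Counts were fitted in R 4.3.3 with edgeR 4.0.16 (TMM factors, quasi-likelihood test, 1 coefficient per group over all libraries of a study, Benjamini-Hochberg adjustment over all features). Features were tested whose mean log2 CPM reached 0.5 (genes), 1 (introns), or 4.5 (ECRs). Introns were also tested with the log gene count as offset. ECR tests, relative intron tests with an ADAR gRNA, and the ADAR comparisons in cytosolic RNA and in the ratio of cytosolic to total RNA were added after the data were seen. Editing was compared by exact two-sided permutation tests in SciPy 1.17.1. Sequences and intron numbers are from GRCh37 and a lifted annotation newer than the authors' one. Scripts were tested on simulated data. limma 3.58.1, DESeq2 1.42.0, other filters, a replicate block, and leaving out each library were alternatives. The 9 genes and all lists were chosen with earlier results of these data known. Named by rule were the 9 genes, up to 4 genes per list that passed on days 3, 4, and 5 with 1 sign (largest on day 5), up to 8 introns that passed relative to their gene on days 4 and 5, and the 3 genes most like UPF1 and SMG5. All others named were chosen after their values were seen. Another marker list is not reported here.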

Additional observations from a re-analysis of the deposited data

Results flagged for a closer look

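The response to hnRNPC targeting differed between days 3 and 5 of study 1 in 8 NMD factors by edgeR's test of the difference itself (day 5 minus day 3, 3 libraries per group): UPF1 0.50, SMG5 0.43, SMG6 0.45, SMG8 0.35, and SMG9 0.38 were higher, and UPF2 −0.34, UPF3A −0.58, and UPF3B −0.34 were lower. CTRL cells changed over the same days in UPF1, SMG5, and SMG9, and the part of this in the differences was not tested. Among all genes tested, 48% passed.

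The response to hnRNPC targeting also differed between cells with and without an ADAR gRNA by the interaction term. On day 5 the difference was 0.39 for UPF2, 0.64 for UPF3A, 0.38 for UPF3B, 0.26 for SMG5, and −0.44 for SMG6, and on day 4 it was −0.41 for UPF3B, opposite in sign to its day 5 value. Both kinds of difference share the CTRL libraries of a day, and the day 5 response of UPF3B and SMG5 to hnRNPC targeting depended on the control group.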

How the results depend on the processing

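Counts of NMD factors that passed kept within 1.5 times their value except as follows. With no filter on low counts, they went from 3 to 1 (ADAR+hnRNPC, day 3), 4 to 2 (hnRNPC, day 4), 0 to 1 (ADAR, day 4), 2 to 1 (ADAR, day 5), 1 to 0 (GFP, day 5), and in total RNA of study 2 from 0 to 1 (hnRNPC) and 3 to 1 (ADAR+hnRNPC). With DESeq2 they became 1 for ADAR on day 4, 2 for the interaction on day 4, 3 for GFP on day 5, and 1 each for hnRNPC in total and cytosolic RNA, and SMG5 in cytosolic against nuclear RNA turned from 0.00 to −0.25. Median-ratio factors gave 1 for ADAR on day 4 and 3 for GFP on day 5. limma-voom gave 1 instead of 2 for the ratio of cytosolic to total RNA with ADAR+hnRNPC targeting. The causes were not tested.

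Replicate numbers were shared, but correlations of same-numbered libraries were not all over 0.1 (−0.169 to 0.748 on day 3 of study 1, −0.336 to 0.445 in study 2), and 163 of 210 comparisons in study 1 and 108 of 144 in study 2 were highest with the own number (21 of 48 and 0 of 18 libraries always). A replicate block gave 1 for ADAR on day 4, 3 for GFP on day 5, and, for introns relative to the gene, 3 instead of 1 (hnRNPC, day 3), 5 instead of 2 (hnRNPC, day 5), and 1 instead of 0 (ADAR+hnRNPC, day 3). The 2 added on day 3 (intron 3 of UPF2, intron 5 of UPF3A) were higher, and the 3 added on day 5 (introns 1 and 7 of SMG5, intron 1 of SMG9) were lower. Crossed pairing gave 4 instead of 6 in cytosolic against nuclear RNA and 0 as before in total RNA of hnRNPC and CTRL cells.

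With the intron filter at an average log2 CPM of 0, more regions entered than the 24 of the main filter. By intron count, hnRNPC targeting then gave 5, 5, and 9 passing introns on days 3, 4, and 5. The main filter had given 2 higher and 0 lower, 2 and 0, and 1 and 3. ADAR+hnRNPC targeting gave 1, 5, and 23, against 0 higher and 0 lower, 2 and 1, and 2 and 11 with the main filter. The number tested at the lower filter is not given here, nor is the share of all introns. The counts alone therefore do not show a changed result. For editing, UPF3A on day 3 with a minimum of 20 reads differed by 1.11 percentage points and no longer passed. With no minimum, SMG5 on day 3 differed by 1.73 points in the other direction and SMG8 by 1.66.

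Without 1 library at a time the counts ranged from 0 to 2 (ADAR+hnRNPC, day 3), 2 to 5 (hnRNPC, day 4), 3 to 6 (ADAR+hnRNPC, day 4), 0 to 1 (ADAR, day 4), and 0 to 2 (interaction, day 4). In study 2 they ranged from 0 to 4 (hnRNPC, total), 0 to 6 (ADAR, total), 0 to 3 (ADAR+hnRNPC, total), 3 to 3 (ADAR, cytosolic), 2 to 4 (ADAR+hnRNPC, cytosolic), and 1 to 5 (ratio of fractions with ADAR+hnRNPC), and for introns of hnRNPC-targeted cells by their own count from 1 to 2 on day 4 and 1 to 3 on day 5 (relative to the gene, 2 to 3 on both days). Of the refits of single values, 1585 kept the side of the threshold, 19 newly passed, and 88 lost the call, where a change of sign with neither value past it counts as unchanged. With 2 libraries per group, study 2 resolves small changes less well than study 1.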
